A study of Rattus with 6 samples.

Results

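The transcripts described here are linear RNAs of the rat spinal cord that were detected after a sham operation and not detected after spinal cord injury (SCI), by the scanner's mark for a signal well above background. They were chosen by their measured values: a transcript belongs to the set when it carried this mark, for at least 50% of its spots, on all 3 sham arrays and on none of the 3 SCI arrays. Of 57102 linear transcripts on the array, 1946 (3.41%) met this rule. They make up 5.23% of the 37241 linear transcripts detected on all 3 sham arrays. Another 33577 linear transcripts were detected on all 6 arrays, 1718 on all 3 sham arrays and 1 or 2 SCI arrays, 13476 on no array, and 902 showed the opposite pattern, with detection on all 3 SCI arrays and no sham array.

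The animals were 6 adult male Sprague-Dawley rats of 200 to 250 g, all labelled non-SPF (not kept free of specific pathogens), with 1 rat per array. In 3 of them a 10 g hammer of 2.5 mm diameter was dropped from 8 cm onto the exposed dural sac at thoracic level 10, a contusion by the modified Allen method. The 3 sham rats had the laminectomy alone, so that both groups carry the anaesthesia and the opened lamina. RNA of the thoracic segment around the site was taken 3 days after SCI, the sham labels give no day, and cyanine-3-labelled cRNA was hybridized to the one-colour rat ceRNA array, which holds messenger RNAs, long noncoding RNAs and circular RNAs. No transgene, Cre or drug is named in the labels.

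A contusion destroys neurons, axons and glial cells at the impact, and blood-borne leukocytes enter the lesion in the following days. A transcript can therefore drop out of detection because its cells die or are diluted by other cells, or because the surviving cells make less of it. In this bulk tissue, fewer cells of a type and less RNA per cell cannot be told apart. The competing endogenous RNA (ceRNA) idea, after which the array is named, holds that RNAs with sites for the same microRNA compete for it, so that a loss of one could change what is left for another.

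Each transcript is represented by a sequence of 60 bases and carries an identifier made of "rclstr" and 3 numbers. The files used here pair none of them with a gene, a transcript name or a position in the genome (each is listed as unmapped), and none is named below. Spinal cord cell types could likewise not be checked against their markers, and whether a lost transcript codes for protein is not given. What the files do hold is the sequence of every transcript's 60 bases, from the scanner output. Those of the 10 lost transcripts with the highest sham level, which are also the 10 with the largest lower bound of the fall (a bound that largely follows the sham level), are shown from 5′ to 3′ because they are the losses that the detection limit constrains least. Capitals mark the 7 bases GTCTTCC, a stretch picked out after the sequences had been seen and counted further below.
rclstr_32274_697_8: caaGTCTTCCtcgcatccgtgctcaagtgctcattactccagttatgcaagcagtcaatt
rclstr_64757_97_19: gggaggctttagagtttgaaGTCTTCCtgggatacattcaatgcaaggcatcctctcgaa
rclstr_42637_331_14: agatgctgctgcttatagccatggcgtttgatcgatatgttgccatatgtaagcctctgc
rclstr_34121_1146_10: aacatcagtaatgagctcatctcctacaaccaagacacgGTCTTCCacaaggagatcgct
rclstr_32912_155_20: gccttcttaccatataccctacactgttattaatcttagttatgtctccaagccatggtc
rclstr_7221_593_6: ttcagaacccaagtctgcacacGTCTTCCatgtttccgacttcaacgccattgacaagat
rclstr_34031_580_6: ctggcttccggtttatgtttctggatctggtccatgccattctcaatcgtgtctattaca
rclstr_39192_402_10: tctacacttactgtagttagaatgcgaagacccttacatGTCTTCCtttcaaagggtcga
rclstr_11926_1008_4: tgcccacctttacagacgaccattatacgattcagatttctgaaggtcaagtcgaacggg
rclstr_54772_272_9: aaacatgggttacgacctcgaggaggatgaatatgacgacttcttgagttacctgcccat

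The values below are log2 values that the authors quantile normalized over the 6 arrays. A transcript that is not above background has only an upper bound there. The loss is therefore given as a lower bound: the mean of the 3 sham values less the mean, over the 3 SCI arrays, of the higher of the transcript's own value and the lowest detected value of that array. These levels decided which transcripts belong to the set, so they are descriptions without a test.

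The most abundant lost transcript, rclstr_32274_697_8, had log2 values of 9.25, 8.86 and 8.09 on sham arrays 1 to 3 and of 3.06, 2.52 and 3.17 on SCI arrays 1 to 3. The group means were 8.73 ± 0.59 and 2.91 ± 0.35 (SD, n = 3), which puts it at least 39.3-fold lower after SCI. The groups are far apart, and the lowest sham value, on sham array 3, is still well over the detection limits of the SCI arrays.

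rclstr_64757_97_19 read 8.33, 7.88 and 7.23 in the sham rats and 1.18, 2.64 and 2.83 in the injured rats, at least 20.8-fold lower. rclstr_42637_331_14 was steadier among the sham rats, at 7.84, 7.85 and 7.54, and read 1.05, 1.52 and 2.89 after SCI, at least 19.8-fold lower. In both, the SCI arrays differ among themselves by more than the sham arrays do, but all of these SCI values lie below the detection limit and have no order.

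rclstr_34121_1146_10 is printed in 10 spots and so was measured repeatedly on each array. It read 7.69, 7.41 and 6.79 in the sham rats and 1.78, 2.23 and 2.53 in the injured rats, at least 14.5-fold lower. All 10 spots were detected on every sham array and 0 of 10 on every SCI array, and the SD over spots was 0.11 to 0.12 on the sham arrays.

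rclstr_32912_155_20 read 7.38, 7.47 and 7.00 in the sham group and 1.30, 1.14 and 1.16 in the SCI group, at least 14.3-fold lower. rclstr_7221_593_6 read 7.72, 7.34 and 6.60 against 2.09, 3.33 and 1.64, at least 13.7-fold lower. For rclstr_34031_580_6 the sham values were 7.20, 7.05 and 7.35 and the SCI values 2.97, 0.97 and 1.73, at least 13.6-fold lower. The last of these is the only one of these 3 whose highest sham value came from sham array 3.

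Of the remaining 3, rclstr_39192_402_10 read 7.32, 7.26 and 6.88 in sham and 1.38, 1.90 and 2.03 in SCI, at least 13.1-fold lower. rclstr_11926_1008_4 read 7.49, 6.76 and 6.54 in sham and 3.10, 2.10 and 2.40 in SCI, at least 11.2-fold lower. rclstr_54772_272_9 read 6.82, 6.62 and 6.83 in sham and 3.54, 2.63 and 1.85 in SCI, at least 9.96-fold lower. No sham value of these 10 transcripts overlapped an SCI value. Nothing is read from this, since detection on the same arrays chose them. Every SCI array was below every sham array for 38.6% of the 42289 probes detected on all 3 arrays of at least 1 group. Normexp background correction adds an offset of 50 to each signal on the linear scale, which raises dim signals most in proportion. With it the lower bounds of the 10 fell from a range of 3.32 to 5.30 to a range of 1.23 to 2.79 on the log2 scale.

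**Figure D1:**
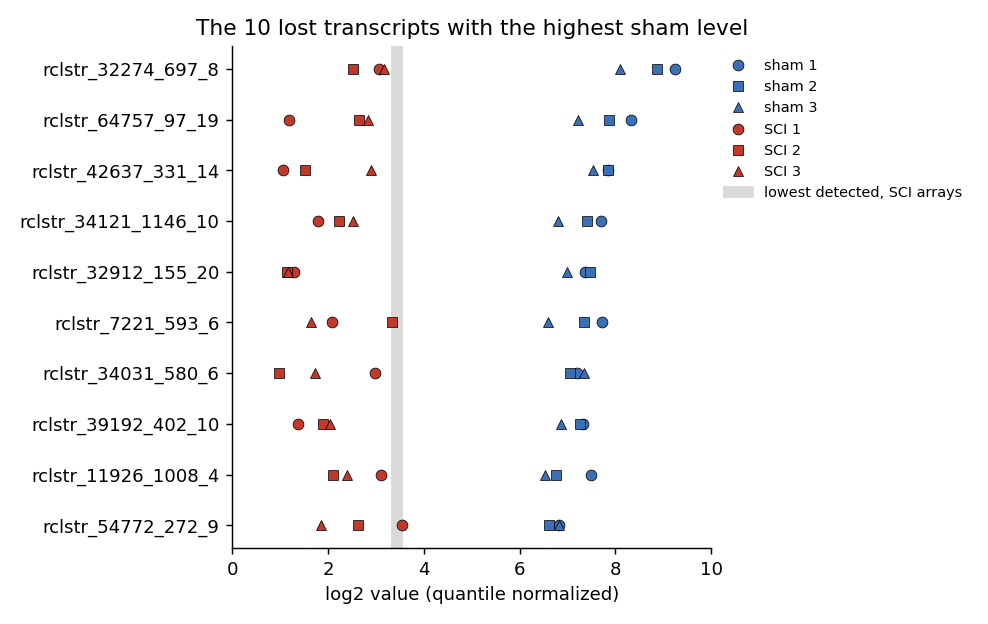
Log2 values (x axis, quantile normalized) of the 10 lost transcripts with the highest sham level (y axis), one marker per array, sham in blue and SCI in red; the grey band spans the lowest detected values of the 3 SCI arrays. The sham markers of each transcript lie between 6.54 and 9.25 and the SCI markers between 0.97 and 3.54, in or to the left of the band.

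Most lost transcripts were dim to begin with. Their mean sham level had a median of 4.15 (lower and upper quartile 3.79 and 4.64, highest 8.73), against a median of 7.70 for the linear transcripts detected on all 6 arrays. The median by array was 4.28, 4.19 and 4.09 on sham arrays 1 to 3 and 2.27, 2.28 and 2.40 on SCI arrays 1 to 3. Sham array 3 gave the lowest of the 3 sham values for 858 of the 1946, sham array 2 for 653 and sham array 1 for 435. The typical spread between sham rats was small, with a median SD of 0.26 (n = 3). The median SD was 0.27 for the 5607 transcripts detected on all 6 arrays at sham levels from 3.47 to 5.50. Those 5607 are called transcripts of the same level below. The lost transcripts themselves ran from 3.16 to 8.73, and the 2 sets were not matched within the range.

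After SCI the readings fell into an upper group, spread mostly below the lowest detected value of the array, and a lower group at the floor of the scale. Over all 1946 the upper quartiles were 2.88 to 2.99 on the SCI arrays, and the highest readings were 3.72 to 3.90. Values under 1.5 were listed for 633 of the 1946 on SCI array 1, 534 on SCI array 2 and 512 on SCI array 3, and for 0 on each sham array. By the scanner's weaker mark, positive and significant against background, 986 of the 1946 were still measurable on all 3 SCI arrays, 513 on 2, 283 on 1 and 164 on none. For the first of these groups, a loss from detection was not a loss of all signal. In the other direction, 336 of the 1946 lay within the range of the negative controls on all 3 SCI arrays and 612 on none of them.

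**Figure D2:**
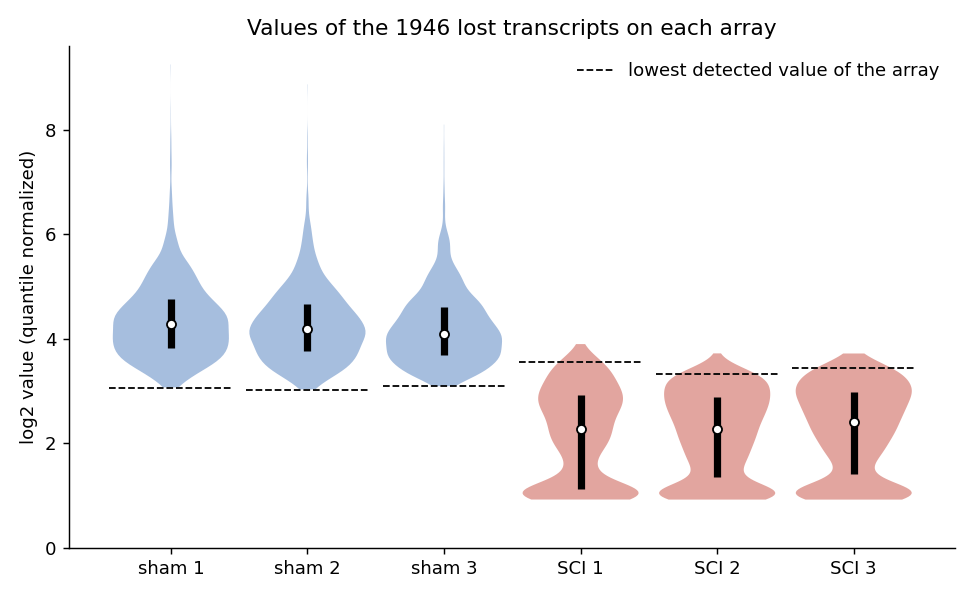
Distribution of the log2 values (y axis, quantile normalized) of the 1946 lost transcripts on each of the 6 arrays (x axis); white points are medians, black bars run from the lower to the upper quartile, and dashed lines give the lowest detected value of the array. The medians are 4.09 to 4.28 for sham and 2.27 to 2.40 for SCI, where a second group of values lies near 1; the scanner sets its mark spot by spot, so some undetected values lie above a dashed line.

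The lower bound of the loss had a median of 0.70 on the log2 scale and quartiles of 0.34 and 1.20. It reached 2-fold for 648 transcripts (33.3%), 4-fold for 111 and 8-fold for 16, and lay at or under 0 for 77. The fitted difference, which takes the SCI values below the limit as they stand, had a median of -2.07 over the lost transcripts and of -0.04 over all 42289 probes tested. With limma 1729 of the 1946 were lower in SCI by at least 2-fold at an adjusted p under 0.05, against 19.9% of all probes tested. Every SCI array was below every sham array for 1867 of the 1946, against 38.6% of all probes tested. Nothing is read from these 2 counts, since detection on the same arrays chose the transcripts. The number called lower changed with the processing. It was 643 of the 1946, against 7153 of the 42289 probes tested, when signals were raised to the lowest detected value of their array. With normexp background correction it was 33 of the 1946, against 3161 of the 42289. The fitted median over the lost transcripts was then -0.28.

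The limits of detection differed between the groups, and they bear on the dimmest losses. Between 68.6% and 69.1% of the linear transcripts were detected on a sham array and between 65.0% and 66.9% on an SCI array. The lowest detected log2 value of sham arrays 1 to 3 was 3.05, 3.02 and 3.08, and that of SCI arrays 1 to 3 was 3.54, 3.33 and 3.44. On the scanner's own linear scale the limits were alike, 9.49 to 9.69 for sham and 8.98 to 9.92 for SCI. The median background intensity came to 32 to 33 for each sham array and 19 for each SCI array, and the 2 groups lie on 2 slides with no slide holding both, so that slide and injury cannot be told apart. All 3 sham values lay above the highest SCI limit for 1386 of the 1946 (71.2%).

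Spike-in RNA and array controls also differed between the slides. On the scanner scale, the 8 of 10 spike-in probes detected on all 6 arrays were higher on the SCI slide by 0.96 to 2.43 log2. Of the probes not detected on all 6, (+)E1A_r60_3, detected on 2 arrays, went the other way, with a mean of 3.36 for sham and 1.37 for SCI. The other, (+)E1A_r60_a104, detected on 0 arrays, had a mean of 1.56 for sham and 2.88 for SCI. Signal from the 3′ end less that from the 5′ end of Pgk1, a glycolytic enzyme used here as a control of RNA integrity, was 6.18, 6.09 and 5.92 log2 for sham and 4.97, 5.16 and 5.19 for SCI, while for Gapdh, another such enzyme, it was 2.64 to 2.81 and 2.58 to 2.74. The part of slide, labelling or RNA integrity in the losses was not tested.

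At the edge of the rule, the levels give little to separate the transcripts inside from those outside. The 3 lost transcripts with the lowest sham level were rclstr_24021_677_8, rclstr_54721_232_20 and rclstr_8212_4100_7, at sham means of 3.16, 3.21 and 3.21. The first of them had a higher mean in SCI (3.33) than in sham, and its bound was negative, at -0.28. It is a loss by the mark alone, not by level.

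Among the transcripts outside by 1 array, 749 were detected on a single SCI array and 833 were missed on a single sham array. Of the former, rclstr_1395_4352_5 read 9.12, 8.89 and 8.11 in sham and 2.76, 2.28 and 3.67 in SCI, a pattern close to that of the most abundant lost transcript. rclstr_55277_214_24 was highest on sham array 3 (6.57, 6.32 and 10.43 against 2.10, 3.38 and 2.70), and rclstr_15462_2337_18 read 8.17, 7.77 and 7.22 against 2.16, 1.10 and 3.65. Of the latter, rclstr_39195_791_10 was high in 2 rats only, at 7.77 and 6.74 on sham arrays 1 and 2 and 3.15 on sham array 3. rclstr_4698_1079_5 was high in 1 rat, at 6.93 on sham array 3, and rclstr_28950_357_16 read 2.94, 4.38 and 5.06.

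A few lost transcripts differed strongly between the sham rats, and were picked for that spread. rclstr_23342_537_13 read 7.96 on sham array 1 but 3.60 and 3.39 on the others, with SCI values of 3.51, 3.46 and 2.63, so that sham array 3 lies below 2 of the SCI arrays. rclstr_2708_910_9 was the reverse, at 3.68 on sham array 1 and 7.57 and 7.72 on the others, with 0.97, 0.97 and 1.10 in SCI. rclstr_47796_675_21 was high on sham array 2 alone (3.80, 6.32 and 3.79).

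The 6 lost transcripts printed in 10 spots show how far a mark of detection depends on single spots. Beside rclstr_34121_1146_10, the transcripts rclstr_27108_1035_4 and rclstr_29780_49_16 had 10 of 10 spots detected on each sham array and 0 of 10 on each SCI array. The other 3 were also detected in 10 of 10 spots in sham but kept some after SCI. rclstr_43940_234_9 kept 1, 4 and 2 of 10 spots on SCI arrays 1 to 3, at values of 3.90, 3.65 and 3.54, and rclstr_42997_766_14 kept 0, 3 and 3. rclstr_41986_624_10 kept 0, 3 and 1. Over all 1946, those with 1 spot give no such view.

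To see whether the losses hold in arrays that had no part in the choice, the set was chosen again from 2 sham and 2 SCI arrays and looked up in the sham and the SCI array left out, for each of the 9 pairs of left-out arrays. Between 2279 and 2782 transcripts were chosen. Of these, 81.9% to 91.6% were detected on the left-out sham array, where 68.6% to 69.1% of all linear transcripts were. On the left-out SCI array 84.7% to 94.1% were not detected, against 33.1% to 35.0% of all. The value was lower on the left-out SCI array than on the left-out sham array for 92.2% to 94.6% of the chosen and for 47.3% to 49.7% of all linear transcripts. The median difference of the chosen was -2.01 to -1.63. It takes SCI values below the limit as they stand, so it does not measure the size of the fall. The chosen transcripts were already detected on 2 sham arrays and on neither of 2 SCI arrays, while all linear transcripts include those detected on no array. Part of each gap therefore follows from the choice. The left-out arrays still share their slide with the arrays used for the choice, and transcripts are not replicates.

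The share of sham-detected transcripts that was lost fell steeply with abundance. It was 46.7% (122 of 261) at sham levels from 3 to under 3.5, 38.4% (661 of 1721) up to 4, 25.9% (563 of 2175) up to 4.5 and 14.3% (342 of 2384) up to 5. From 5 to under 6 it was 4.43%, and from 6 to under 7 it was 0.57%, or 30 of 5260. At 7 to under 8 it came to 7 of 5131 and at 8 or more to 1 of 15339, the transcript rclstr_32274_697_8. The bins are those of all sham-detected transcripts, and the lower edge of the first lies near the detection limit.

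**Figure D3:**
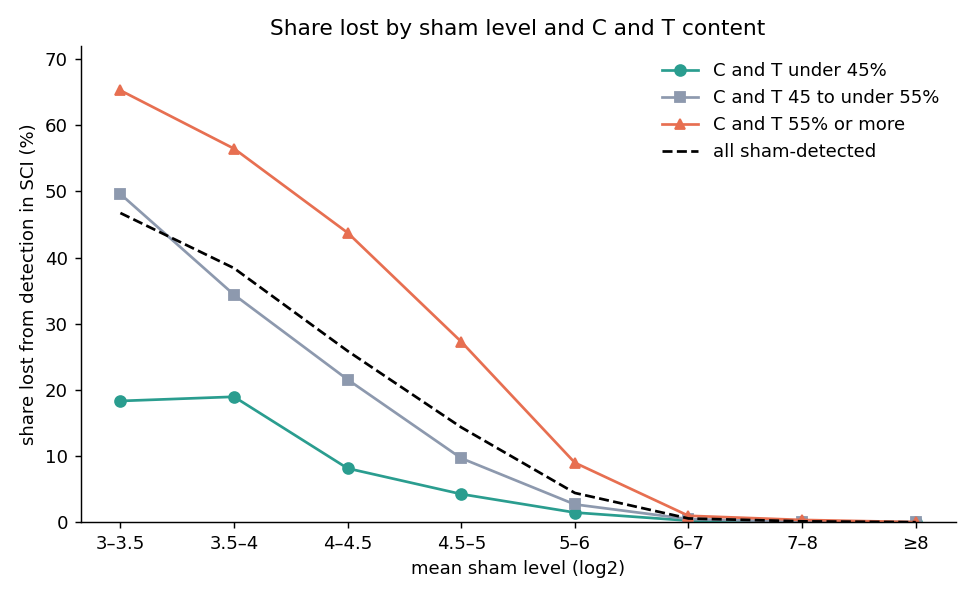
Share of the linear transcripts detected on all 3 sham arrays that was lost from detection in SCI (y axis, percent), by mean sham level (x axis, log2) and by the share of C and T among the 60 bases. At every level the share is highest for transcripts with 55% or more C and T, and over all transcripts it falls from 46.7% at the dimmest to 1 of 15339 at levels of 8 or more.

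The lost transcripts also differed on average in base composition, which the rule did not use, with wide overlap. Their 60 bases held on average 54.5% of C and T (the pyrimidines). The average was 49.1% in the 5607 transcripts of the same level (detected on all 6 arrays, sham levels from 3.47 to 5.50). It was 49.2% in all linear transcripts and 47.3% in the 902 transcripts detected in SCI alone. The quartiles were 50% and 60% in the lost transcripts and 45% and 53.3% in those of the same level. Both pyrimidines contributed, with C at 25.1% against 22.3% and T at 29.4% against 26.8%, while G was 20.2% against 22.9% and A 25.3% against 28.0%. The mean GC content was 45.3% in the lost transcripts, 45.2% in those of the same level, 45.1% in all linear transcripts and 44.8% in those detected in SCI alone, with values from 40% to 46.7% throughout. The excess ran along the whole sequence, at 54.6% in the first 30 bases and 54.4% in the last 30.

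The share lost rose with the C and T content. Of the sham-detected transcripts with under 35% C and T, 0.76% (7 of 918) were lost, and the share was 3.38% at 45% to under 50%, 8.33% at 55% to under 60% and 11.7% (159 of 1362) at 65% or more. The opposite pattern, detection in SCI alone, was found in 1.72% to 1.95% of the linear transcripts in each step under 55%, in 1.02% at 55% to under 60%, 0.73% at 60% to under 65% and 0.13% (2 of 1524) at 65% or more. The share lost rose within levels too: at sham levels from 4 to under 4.5 the share lost was 8.14% (39 of 479) with under 45% C and T and 43.8% (312 of 713) with 55% or more, and from 5 to under 6 it was 1.47% and 8.99%. Under the weaker mark of detection, the same numeric limit for both groups, and without each array in turn, the share lost ranged from 0.49% to 2.31% for transcripts with under 45% and from 4.76% to 11.3% for those with 55% or more. These settings were chosen after the data had been seen.

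Transcripts that the rule left out were also lower in SCI where C and T were most frequent. Among the 33577 detected on all 6 arrays, the median SCI minus sham difference was -0.06 log2 under 35% C and T, 0.07 to 0.09 in each step from 35% to under 55%, -0.03 at 55% to under 60%, -0.21 at 60% to under 65% and -0.72 at 65% or more (1111 transcripts). Within levels the step of 65% or more was the lowest at each, and the steps below it were in order at the dimmer levels and not at the brighter ones. At sham levels from 4 to under 6 the median difference was 0.48 under 45% C and T, 0.42 at 45% to under 55%, 0.18 at 55% to under 65% and -0.59 at 65% or more. At levels from 6 to under 8 these medians were 0.09, 0.07, -0.22 and -0.98. At sham levels from 8 to under 10 the median was -0.08 under 45%, -0.07 at 45% to under 55%, -0.14 at 55% to under 65% and -0.86 over 279 transcripts at 65% or more. At levels of 10 or more these were -0.18, -0.12, -0.15 and, over 254 transcripts, -0.51. Across these 33577 transcripts, which share their arrays, Pearson's r between C and T content and the SCI minus sham difference was -0.11, and it lay between -0.12 and -0.09 for each of the 9 pairs of an SCI and a sham array. Between 2 arrays of the same group its size was at most 0.05. Such a correlation is weak and is given as a description. Base composition, slide and injury were not separated by the design, and the part of composition in the losses was not tested.

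**Figure D4:**
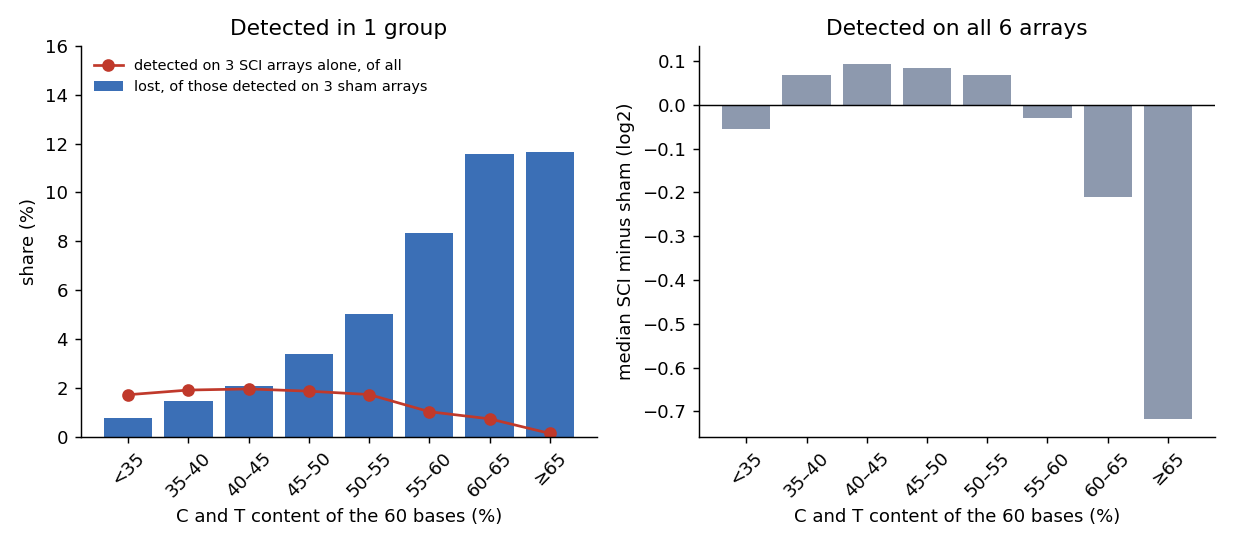
By C and T content of the 60 bases (x axis, percent): left, the share lost among transcripts detected on all 3 sham arrays (bars) and the share of all linear transcripts detected on the 3 SCI arrays alone (red line); right, the median SCI minus sham difference (log2) of the 33577 transcripts detected on all 6 arrays. The share lost rises from 0.76% to 11.7%, the SCI-alone share stays at 1.72% to 1.95% under 55% and then falls to 0.13%, and the median difference reaches -0.72 at 65% or more.

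Short stretches gave the same picture. Of the 6-base stretches found in at least 25 lost transcripts and 25 transcripts of the same level, CCTCCC had the highest ratio. It occurred in 2.31% of the lost transcripts and 0.50% of those at the same level detected on all 6 arrays, against 0.78% of all linear transcripts, and its reverse complement GGGAGG in 0.41% and 0.86%. CTGCCC (2.00% against 0.55%) and CCCTCC (2.11% against 0.61%, and in part the same bases as CCTCCC) followed. Among stretches found in at least 100 transcripts of the same level, with no minimum for the lost ones, AAGGAG had the lowest ratio, at 0.92% of the lost transcripts and 2.87% of the others. For each of the 15 stretches with the highest ratio, the reverse complement was rarer in the lost transcripts than in those of the same level.

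The stretch GTCTTCC, capitalized in the sequences above, occurred in 5 of the 10 most abundant lost transcripts, in 8 of the 50 with the largest bound, in 27 of all 1946 (1.39%) and in 287 of the 57102 linear transcripts (0.50%). Of the 236 transcripts that hold it and were detected on all 3 sham arrays, 11.4% were lost, against 5.23% of all sham-detected transcripts and 8.33% to 11.7% in the steps of 55% or more C and T. The stretch itself holds 6 such bases of 7. The 27 include the 5 sequences in which the stretch was seen. None of the 287 was detected in SCI alone, against 902 of the 57102. Its reverse complement GGAAGAC occurred in 404 linear transcripts, of which 3 were lost, or 1.19% of the 252 detected in sham, and 10 were detected in SCI alone. The median level of the 27 lost transcripts with GTCTTCC was 5.20, 5.16 and 4.42 on sham arrays 1 to 3 and 1.91, 1.66 and 2.12 on the SCI arrays.

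Transcripts with GTCTTCC that stayed detectable were lower in SCI as well. The 188 that were detected on all 6 arrays had median levels of 9.81, 9.51 and 9.20 in sham and 7.91, 7.88 and 8.02 in SCI. Their median SCI minus sham difference was -0.96 log2, 139 of the 188 were lower in SCI against 49.2% of all 33577 detected on all 6 arrays, and in 119 (63.3%) every SCI array was below every sham array, against 35.5% of all 33577. The 243 with the reverse complement had a median difference of 0.05. The 188 were not matched for C and T content, and the median was -0.72 over all 1111 with 65% or more. Of 8890 stretches of 7 bases found in at least 100 transcripts detected on all 6 arrays, GTCTTCC had the 7th lowest median. The lowest was CCTGCCC at -1.33 over 116 transcripts, followed by CCCTCTC at -1.15 and TCCTCCC at -1.10, which hold C and T alone. A stretch of bases describes these sequences and is not shown to be a site for any factor.

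The losses were unevenly spread over the identifiers. The first number of the identifier runs from 0 to 67009, and no lost transcript shares it with another linear transcript. The sources used here do not say what the numbers mean. The second number has a ceiling that falls with the first in every step of 1000. Of the sham-detected transcripts with a first number from 41500 to 43499, 23.6% (188 of 797) were lost, against 4.82% (1758 of 36444) of all others. In steps of 500 the share was 10.3% from 41000, 21.8% from 41500, 30.3% from 42000, 25.4% from 42500, 17.4% from 43000 and 4.26% from 43500. The range was picked from these values.

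The 188 lost transcripts of this range were close in sham level to the rest. Their median sham level was 4.18 and their median bound 0.73, against 4.14 and 0.70 for the other 1758. Most lost transcripts are dim, so this does not show equal levels among all sham-detected transcripts. The sham level of the 797 sham-detected transcripts of the range was not compared. The shares lost of 23.6% and 4.82% are therefore not matched for level. Fewer of the 1758 transcripts of the range were detected on all 3 sham arrays (45.3% against 65.8%), and 14 (0.80%) were detected in SCI alone, against 888 (1.60%) of the others. Their C and T content averaged 53.2% over the whole range and 59.0% in the lost ones, but the lost transcripts outside the range still held 54.0%. The 554 transcripts of the range detected on all 6 arrays had a median SCI minus sham difference of -0.10, against 0.02 for the others. Under the other marks of detection and without each array in turn, the share lost was 12.0% to 26.2% within the range and 2.47% to 5.84% outside it.

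**Figure D5:**
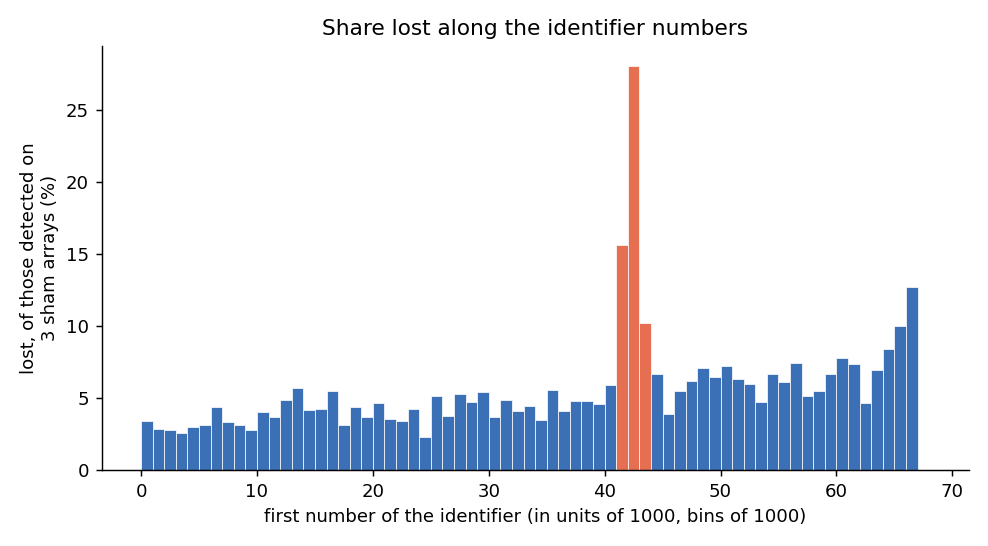
Share lost from detection in SCI among the linear transcripts detected on all 3 sham arrays (y axis, percent), by the first number of the identifier in bins of 1000 (x axis, in units of 1000). The orange bins, from 41000 to 43999, reach 28.0% in the bin from 42000, and the next highest bin outside them, from 66000, reaches 12.7% (34 of 268).

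Some transcripts in and near this range hold a common pattern of bases. A pattern of 17 bases, GANCGNTANNTNGCNAT (N is any base), was written down after the third most abundant lost transcript, rclstr_42637_331_14, had been seen. It occurred in 38 linear transcripts (0.07%), of which 27 belong to the 1758 with a first number from 41500 to 43499, and on the opposite strand in none. Of the 38, 11 were detected on all 3 sham arrays, and 7 of these 11 were lost, rclstr_42637_331_14 itself among them. Within the range 6 of 7 were lost, and outside it 1 of 4, rclstr_41214_358_18. The share lost was 23.6% of all sham-detected transcripts in that range and 5.23% of all sham-detected linear transcripts. The 3 with the largest bounds after rclstr_42637_331_14 are shown with the pattern in capitals, to let the shared bases be seen against the differing ones.
rclstr_42341_329_13: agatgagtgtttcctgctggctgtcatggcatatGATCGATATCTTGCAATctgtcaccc
rclstr_41665_354_9: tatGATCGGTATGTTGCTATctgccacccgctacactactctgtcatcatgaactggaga
rclstr_42435_357_10: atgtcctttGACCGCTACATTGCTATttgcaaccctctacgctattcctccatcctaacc
rclstr_42341_329_13 read 5.02, 5.48 and 5.15 in sham and 3.45, 2.77 and 3.36 in SCI, at least 3.43-fold lower. rclstr_41665_354_9 read 4.93, 5.27 and 4.74 in sham and 2.00, 1.13 and 1.82 in SCI, at least 2.91-fold lower. rclstr_42435_357_10 read 4.45, 4.64 and 4.52 in sham and 2.30, 1.81 and 2.21 in SCI, at least 2.14-fold lower. In these 3 the sham arrays agree closely. No SCI value reaches them, but detection on the same arrays chose them, and this held for 38.6% of all probes tested.

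The remaining 3 with the pattern, rclstr_41214_358_18, rclstr_42496_324_14 and rclstr_42608_359_14, were dimmer, at sham means of 4.12, 3.68 and 3.61, with bounds of 0.68, 0.24 and 0.17. rclstr_42637_331_14 itself shares 25 bases, in capitals below and in part those of the pattern, with rclstr_41458_383_14, which also holds the pattern, lies outside the range and was not lost: its sham mean was 6.72 and its SCI mean 6.00, with detection on all 6 arrays. The other 3 carriers that were not lost, rclstr_40737_348_10, rclstr_41720_378_11 and rclstr_7531_1166_3, were also detected on all 6, and their means went from 5.30 to 4.25, from 8.59 to 7.16 and from 6.84 to 4.92.
The 2 sequences with the 25 shared bases are:
rclstr_42637_331_14: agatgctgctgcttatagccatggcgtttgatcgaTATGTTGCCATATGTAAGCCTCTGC
rclstr_41458_383_14: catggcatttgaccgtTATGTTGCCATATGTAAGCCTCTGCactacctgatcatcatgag

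Pairs of transcripts that share at least 20 bases were also listed. Of 1358 such pairs among the linear transcripts, 61 held a lost transcript, and in 10 of these both were lost, so that these are not independent measurements. Of the 10 pairs in which both were lost, the 2 with the longest overlap and 1 of the 3 tied at 44 bases are shown, the shared bases in capitals.
rclstr_26223_1357_13: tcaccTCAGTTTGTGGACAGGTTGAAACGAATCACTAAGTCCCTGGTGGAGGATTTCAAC
rclstr_28985_1146_1006: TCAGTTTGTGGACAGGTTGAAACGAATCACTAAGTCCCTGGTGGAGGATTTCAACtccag
rclstr_35994_323_11: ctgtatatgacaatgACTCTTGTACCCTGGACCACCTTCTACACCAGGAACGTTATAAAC
rclstr_59070_119_1003: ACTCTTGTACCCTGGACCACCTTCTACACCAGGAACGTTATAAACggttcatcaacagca
rclstr_20021_817_23: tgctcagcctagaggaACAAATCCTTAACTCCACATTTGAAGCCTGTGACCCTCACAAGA
rclstr_28252_209_546: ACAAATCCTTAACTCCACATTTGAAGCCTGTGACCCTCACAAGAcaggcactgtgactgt
The first pair, with 55 bases in common, had sham means of 3.88 and 3.92 and SCI means of 2.86 and 2.85. The second, with 45, had sham means of 4.84 and 5.03 and SCI means of 2.61 and 2.57. The third, with 44, had sham means of 5.44 and 4.85 and SCI means of 3.17 and 1.84. All these SCI means stand for readings below detection and are not compared.

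In the other 51 pairs the partner was not lost. It was detected on no array in 26, on 1 or 2 sham arrays and no SCI array in 6, on all 3 sham arrays and 1 or 2 SCI arrays in 7, and on all 6 arrays in 12. Partners share bases with transcripts chosen for their loss, so the shares below are not independent of the choice. They are matched neither for level nor for base composition. Of the 19 partners detected on all 3 sham arrays, 18 had a lower mean in SCI. The share was 51.4% of the 35295 linear transcripts that were detected on these arrays and not lost. Of these 19, 7 missed detection on 1 or 2 SCI arrays, against 1718 of the 35295. Of the 12 detected on all 6 arrays, 11 were lower, against 49.2% of 33577. The exception was rclstr_64852_44_1032, which shares 23 bases with rclstr_58850_56_25 and was among the brightest, at 13.88 in sham and 14.23 in SCI, while rclstr_58850_56_25 went from 4.63 to 1.83. There were 26 pairs in which a lost transcript shares 20 bases with the opposite strand of another transcript. The partner was detected on all 6 arrays in 11 of them, with a lower mean in SCI in 7, and on no array in 5. In another, rclstr_18885_2641_16 went from a sham mean of 5.30 to an SCI mean of 2.42 and its opposite-strand partner rclstr_7380_2432_11 from 3.01 to 5.04. It was named after its values had been seen, and the partner was detected on 1 sham array and all 3 SCI arrays.

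Lost transcripts were found in every strip of the array, and the strips were not tested against each other. In 8 equal strips by row, 2.81% to 4.09% of the linear transcripts were lost, and in 8 strips by column 3.31% to 3.54%.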

How the data were processed

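RNA of the 6 spinal cords (mirVana kit per the labels, TRIzol per the methods) was labelled and hybridized to 6 one-colour arrays. The authors deposited the scanner output of Agilent Feature Extraction 10.7.1.1, an intensity on a linear scale with the background subtracted, and a table of log2 values that they quantile normalized with GeneSpring 13.0; each column correlated with its own array at 1.00. The deposited output also gives p values of the scanner software for a spot equal to its background, which were not used. Detection came from the scanner's well-above-background marks, and levels from the table. The 42289 probes detected on all 3 arrays of at least 1 group were compared with limma 3.58.1 in R 4.3.3 (lmFit and eBayes, two-sided, Benjamini-Hochberg). Files were read with the R package data.table, version 1.17.8. The fit was tested on simulated data. Sequences were counted in Python 3.11.15 with pandas 2.3.3 and numpy 2.4.6, and figures drawn with matplotlib 3.10.9.

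The transcripts and lists were chosen with earlier results of these data known. Named transcripts were the 10 with the highest sham level, the 10 with the largest bound (the same 10), and 3 on each edge of the rule; others were picked after their values were seen, as the text says. The planned gene lists, marker lists and match of probes to genes were not applied, because no sequence of a named transcript was given here. Precision is limited by 3 arrays per group, and nothing says that the rats were processed on separate days. No spot was saturated (0 of 61537 spots per array). Alternatives were other marks and limits of detection, other normalizations, signals raised to the floor, no filter, no moderation, a replicate block, and each array left out in turn.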

Additional observations from a re-analysis of the deposited data

How the results depend on the processing

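The number of lost transcripts, 1946, became 1207 with the mark of positive and significant signal and 3746 when detection on 2 of 3 sham and at most 1 of 3 SCI arrays was enough; it was 1386 with the same numeric limit for both groups and 2080 to 2391 without each array in turn. The lost transcripts called lower by limma (1729 of 1946) numbered 33 with normexp and 643 with signals raised to the floor. All probes called lower (8401 of 42289) numbered 3161 with normexp and 7153 with signals raised to the floor. Without each array in turn these 2 counts were 1596 to 1682 and 7788 to 8713. The median lower bound, 0.70 log2, was 1.25 with a 75th percentile shift, 0.19 with normexp and 0.65 to 0.76 without each array in turn. The other settings stayed within 1.5 times of these counts, and no lower bound of the 10 named transcripts changed sign. The cause of these shifts was not tested. With the replicate number as a block, 1714 of the lost transcripts and 8352 of all probes were called lower. The deviations of same-numbered arrays from their group means correlated at -0.11, -0.08 and -0.16, and those of differently numbered arrays at -0.02 to 0.13. The labels do not say whether the numbers pair the rats, and correlations over 3 arrays per group cannot decide it.

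Signal over background limits most of these results: the dim values of the SCI arrays have no order, and a loss from detection is a bound, not a level. A slide block could not be fitted, because each group lies on 1 slide of its own. A match with 1 mismatch was not run, because no transcript sequences were given here.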
